A study of Mus musculus with 12 samples.

Results

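The interferon regulatory factors (IRFs) are DNA-binding proteins that recognise short GAAA repeats and turn on interferon genes and interferon-stimulated genes. In lymphocytes, IRF4 and IRF8 bind weakly on their own and are recruited to DNA by the bZIP factor BATF and its JUN partner, at composite elements that join a GAAA half-site to the bZIP (AP-1) site. BATF and IRF4 are both needed for the development of Th17 and Th9 cells, so the question here was where BATF itself sat around the genes that encode the IRFs in these cells. The genes examined were *Irf1*, *Irf2*, *Irf3*, *Irf4*, *Irf5*, *Irf7*, *Irf8* and *Irf9*, which are 8 of the 21774 protein-coding genes of the annotation. They were chosen as members of 1 gene family, with earlier results of these data known. A BATF peak was given to a gene when its summit, the base with the strongest signal, lay in the gene body or within 50 kb of it on the mm10 (GRCm38) mouse genome. By this rule 4 of the 5873 BATF regions of the series fell to 4 of the 8 genes.

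The data were BATF ChIP-seq peak lists from Th9 and Th17 cells, with 2 libraries for each cell type (Th9 libraries 1 and 2 and Th17 libraries 3 and 4). All cells were naive CD4+CD62L+ T cells of C57BL6/J mice, cultured with anti-CD3 and anti-CD28 and collected on day 5 without renewed activation. Th9 cultures received IL-4, human IL-2, TGF-β1 and anti-IFNγ, whereas Th17 cultures received IL-6, TGF-β1, IL-23, IL-1β and antibodies to IFNγ, IL-4 and IL-2. Nothing in the sources says that the libraries came from separate animals, so differences between libraries may be technical. Chromatin came from whole cultures, so that binding in fewer cells and weaker binding per cell cannot be told apart.

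Peaks called against the input and IgG libraries together numbered 1709, 241, 4111 and 199 in libraries 1 to 4, and 5595 of the 5873 merged regions (95.3%) were called in 1 library only. The number of BATF fragments stacked on a summit and the number the control predicts could be worked out from the deposited fold enrichment and p-value for 99.9% of the 17427 peaks. The genome-wide background lay between 0.771 and 0.987 fragments in the 4 libraries, so the numbers of peaks differed far more than the background did. At that background the fewest fragments of any listed peak were 8, 8, 7 and 8 in libraries 1 to 4. As a check of the labels, *Il9*, the Th9 cytokine gene, had 2 peaks in Th9 library 2 and none in the other libraries. *Il17a* and *Il17f*, the Th17 cytokine genes, each had 1 peak in Th17 libraries 3 and 4 but also in Th9 library 1. The labelled Th9 library 1 thus carried a peak at the Th17 genes and none at *Il9*.

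The sequences below are the 201 bases centred on the summit of each region that the results turn on, read from the plus strand of GRCm38, with AP-1 or composite matches in capitals. Distances in their labels are measured from the start site of the IRF gene, not from its 3′ end. They are shown because the presence and the place of an AP-1 site separates the 4 regions from each other. The region upstream of *Irf8* (chr8:120716391-120716591) and the region downstream of *Irf4* (chr13:30796245-30796445) each held 1 TGACTCA site, the AP-1 consensus.
Irf8, 19.9 kb upstream: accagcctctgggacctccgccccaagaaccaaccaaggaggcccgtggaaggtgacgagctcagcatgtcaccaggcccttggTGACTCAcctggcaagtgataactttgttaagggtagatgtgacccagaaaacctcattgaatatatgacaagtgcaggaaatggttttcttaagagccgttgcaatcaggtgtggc
Irf4, 47.1 kb downstream: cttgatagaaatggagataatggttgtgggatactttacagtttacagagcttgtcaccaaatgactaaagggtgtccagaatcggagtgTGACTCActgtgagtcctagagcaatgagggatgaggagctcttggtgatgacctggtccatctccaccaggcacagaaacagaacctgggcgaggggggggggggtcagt
The region downstream of *Irf7* (chr7:141257821-141258021) and the region downstream of *Irf9* (chr14:55643378-55643578) held no match, and the second of these was rich in G and C (71.1% of bases).
Irf7, 8.50 kb downstream: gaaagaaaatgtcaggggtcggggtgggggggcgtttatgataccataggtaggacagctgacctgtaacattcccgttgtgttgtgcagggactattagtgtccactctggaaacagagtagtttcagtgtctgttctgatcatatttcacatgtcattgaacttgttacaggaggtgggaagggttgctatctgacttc
Irf9, 38.9 kb downstream: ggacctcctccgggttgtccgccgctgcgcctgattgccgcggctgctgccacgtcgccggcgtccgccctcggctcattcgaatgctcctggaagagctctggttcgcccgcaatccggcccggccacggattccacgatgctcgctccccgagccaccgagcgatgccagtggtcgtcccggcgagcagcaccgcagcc
A further region, 94.0 kb past the end of *Irf2* (chr8:46941394-46941594) and so outside the 50 kb rule, is shown because it was called in 3 libraries and carried a complete composite element, GAAA directly before TGANTCA.
Irf2, 201.7 kb downstream: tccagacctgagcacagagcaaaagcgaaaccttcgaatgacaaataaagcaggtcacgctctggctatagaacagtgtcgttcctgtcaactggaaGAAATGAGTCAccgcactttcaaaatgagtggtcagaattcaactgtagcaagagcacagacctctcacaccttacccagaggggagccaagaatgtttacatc

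BATF peaks were found at 4 of the 8 IRF genes, each in 1 library, as was the case for 95.3% of all BATF regions. *Irf7*, *Irf8* and *Irf9* had 1 peak each in Th17 library 3, *Irf4* had 1 peak in Th9 library 2, and Th9 library 1 and Th17 library 4 had none at any of the 8 genes. In the list called against input and IgG together, *Irf1*, *Irf2*, *Irf3* and *Irf5* had no peak within 50 kb in any library. No summit lay inside the body of an IRF gene. Over all protein-coding genes 9.58% had a summit inside the body in some library, so none among 8 genes does not set the IRF genes apart. Of the 4 regions, 3 lay past the 3′ end of the gene and 1 lay upstream of its start site.

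**Figure D1:**
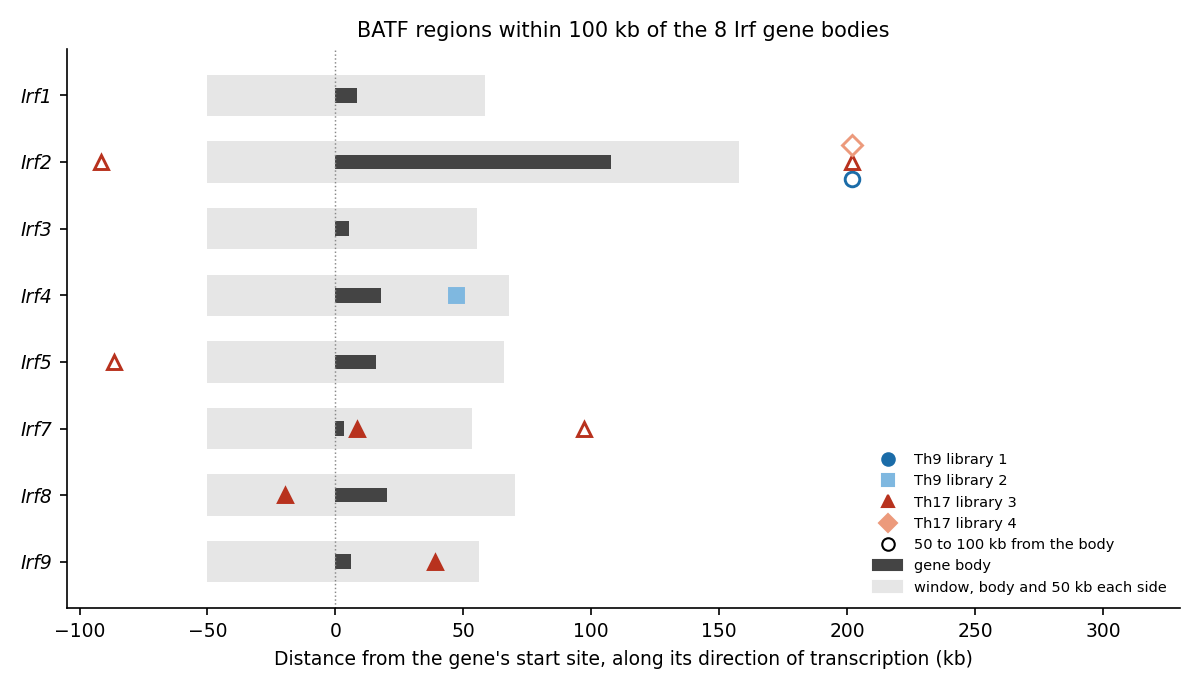
Position of each BATF region relative to the start site of the IRF gene it is near, in kb along the direction of transcription. Dark bars are gene bodies, grey bars the window of the body and 50 kb to either side, and each marker a peak of 1 library, open where it lies 50 to 100 kb from the body. The filled markers are the 4 regions at *Irf4*, *Irf7*, *Irf8* and *Irf9*, each with 1 library, and the open stack downstream of *Irf2* holds 3 libraries.

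The counts per library were 0 and 1 in Th9 cells (mean 0.5 ± 0.707, SD, n = 2) and 3 and 0 in Th17 cells (mean 1.5 ± 2.12, SD, n = 2). The cell types overlapped, and the difference of 1 peak was smaller than the spread between the Th17 libraries (exact two-sided permutation test, p = 1, where 0.333 is the smallest p that the 6 arrangements allow). A peak in any library was found at 4 of the 8 IRF genes (50%) and at 28.8% of all protein-coding genes. In Th9 cells 1 of the 8 had a peak, beside 10.5% of all genes, and in Th17 cells 3 of the 8, beside 22.3%. None had a peak in both cell types, as 3.89% of all genes did, and none in 2 or more libraries, as 4.36% did. Library by library, the share of all genes with a peak was 9.33%, 1.71%, 21.9% and 1.23% for libraries 1 to 4. Most of the IRF peaks therefore came from the library in which peaks were most frequent at all genes, and without Th17 library 3 the peak at *Irf4* was the only one left.

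*Irf8* encodes the factor that directs the development of myeloid and dendritic cells and that can replace IRF4 in complexes with BATF. The gene occupies chr8:120736358-120756694 on the plus strand. Its region, chr8:120716369-120716596, had the most fragments and the highest fold enrichment and −log10 q of the 4 peaks. It lay 19.9 kb upstream of the *Irf8* start site, between genes, and no annotated start site was closer. In Th17 library 3 the summit carried 13 BATF fragments (exact 95% Poisson interval 6.92 to 22.2) over a control background of 0.771, so that it was enriched 7.90-fold (−log10 q 8.14). The peak ranked 540 of the 4111 peaks of that library by q, and had the same fold enrichment when called against input alone or IgG alone. The TGACTCA site began 16 bases before the summit, and none of the bases of the peak was masked as a repeat. In the other libraries no peak was listed there, and the lower end of the counting interval fell below the 8 fragments that the weakest listed peaks of those libraries carried. That interval comes from Th17 library 3 alone, and the lists give no fragment number for this site in the other libraries. Why no peak was listed in them was not tested.

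*Irf7* encodes the factor that amplifies type I interferon production. The gene lies on the minus strand at chr7:141263183-141266499. Its region, chr7:141257803-141257969, was the one closest to an IRF gene, 5262 bases past the 3′ end and 8503 bases from the start site. It fell in intron 13 of *Phrf1*, a neighbouring gene for a PHD and RING finger protein, although the *Irf7* start site was the nearest start site. The summit carried 11 fragments in Th17 library 3 (5.49 to 19.7) over a background of 0.771, an enrichment of 6.78-fold at rank 988 (−log10 q 6.0). Against input alone the background rose to 1.30 fragments and the fold enrichment was 5.22, with a −log10 q of 4.10. No AP-1 site lay within 100 bases of the summit, and 26.9% of the bases of the peak were masked as repeats.

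*Irf9* encodes the DNA-binding subunit of ISGF3, the complex that answers type I interferon. The gene lies on the plus strand at chr14:55603985-55610030. Its region, chr14:55643322-55643603, was 38.9 kb downstream of the *Irf9* start site but only 107 bases from the start site of *Tm9sf1*, a transmembrane protein gene, and so lay in the promoter of another gene. The summit carried 9 fragments in Th17 library 3 (4.12 to 17.1) over a background of 0.771. Its fold enrichment of 5.65 equalled the median of that library, its −log10 q was 4.12, and it was listed with the same fold enrichment against each control. Of the 4 regions it alone held neither an AP-1 site nor a GAAA half-site near the summit.

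*Irf4*, the partner of BATF in T cells, had the lowest fold enrichment and −log10 q of the 4 peaks, though not the fewest fragments. Its peak was the only one from Th9 cells, so these values come from a different library than those of the others. The gene lies on the plus strand at chr13:30749233-30766981. The region, chr13:30796206-30796372, was 47.1 kb downstream of the *Irf4* start site and 29.4 kb past its 3′ end. It lay outside curated transcripts but inside the span of the *Exoc2* gene record, which encodes an exocyst subunit. In Th9 library 2 the summit carried 10 fragments (4.80 to 18.4) over a background of 1.19, an enrichment of 5.02-fold whose −log10 q, 2.85, was close to the threshold of 2 used in the peak calls. It ranked 182 of 241 peaks. Against IgG alone the fold enrichment was 5.87 and the −log10 q 3.66, and against input alone no peak was listed. The TGACTCA site began 10 bases before the summit. The nearest peak to *Irf4* in each of the other libraries was 113.6, 212.6 and 14857 kb from the gene body (libraries 1, 3 and 4).

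**Figure D2:**
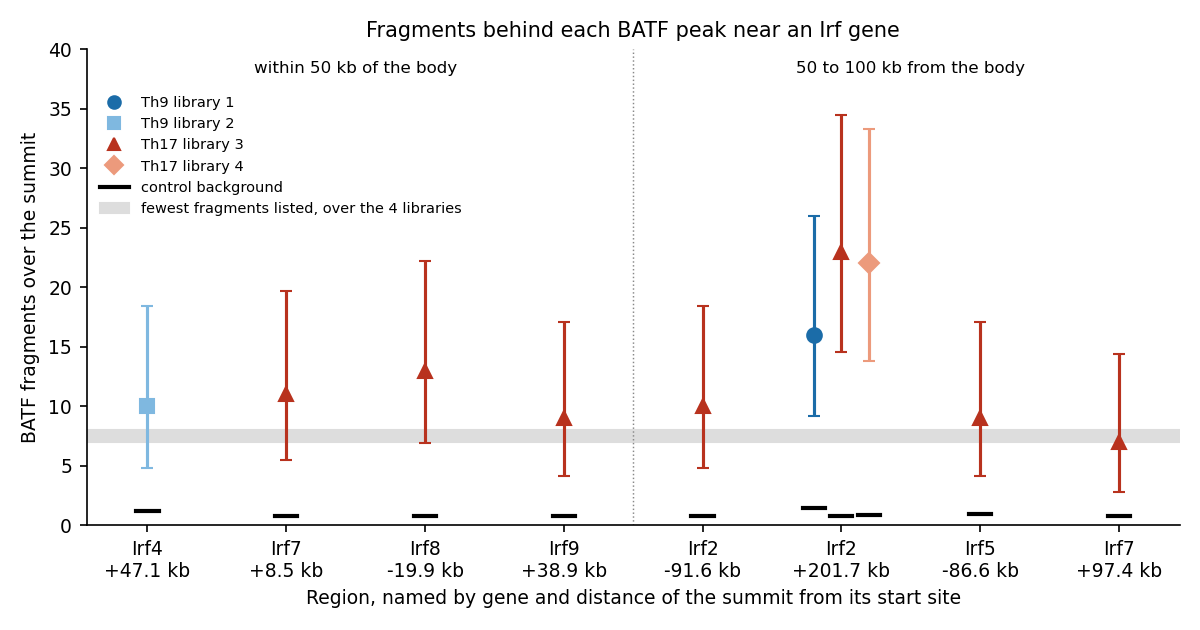
BATF fragments over the summit of each peak within 100 kb of an IRF gene (markers, with exact 95% Poisson intervals), with the control background at the same base (black lines) and, as a grey band, the 7 to 8 fragments carried by the weakest peaks listed at the genome-wide background. The 4 regions within 50 kb carried 9 to 13 fragments, and the region downstream of *Irf2* carried 16 to 23.

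The other 4 genes had no peak in the rule's lists. *Irf5*, whose product acts downstream of Toll-like receptors in myeloid cells (chr6:29526130-29541869, plus strand), had a peak when Th17 library 3 was called against input alone. That peak, chr6:29501853-29502028, lay 24.2 kb upstream of the *Irf5* gene body in an intron of *Kcp*, a gene for a secreted chordin-like protein. It was enriched 4.52-fold (−log10 q 2.60), ranked 3219 of 4024, and was listed neither against IgG nor against both controls. *Irf1*, an interferon-γ target that activates antigen presentation genes (chr11:53770014-53778374, plus strand), *Irf2*, its repressor counterpart (chr8:46739745-46847458, plus strand), and *Irf3*, the sensor-activated inducer of *Ifnb1* (chr7:44997648-45002848, plus strand), had no peak within 50 kb in any of the 12 lists. The absence of a listed peak means that the call did not reach its threshold, not that BATF was absent.

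The BATF region listed in the most libraries near an IRF gene lay outside the rule. It was 201.7 kb downstream of the *Irf2* start site and 94.0 kb past its 3′ end, at chr8:46941343-46941613. The site was outside curated transcripts, inside the span of the *Enpp6* gene record, and 45393 bases from the start site of *Enpp6*, a phosphodiesterase gene, which was the nearest. The summit of each library's own peak carried 16 fragments (9.15 to 26.0) in Th9 library 1, 23 (14.6 to 34.5) in Th17 library 3 and 22 (13.8 to 33.3) in Th17 library 4. The fold enrichments were 6.84, 13.6 and 12.4, the −log10 q values 7.21, 21.1 and 18.0, and the ranks 252 of 1709, 59 of 4111 and 11 of 199. Without Th9 library 1, whose label the *Il9* and *Il17a* peaks did not bear out, the site rested on both Th17 libraries alone. All 3 counting intervals overlapped, and each peak was also listed against input alone and against IgG alone. In Th9 library 1 the input alone gave a background of 2.33 fragments, and IgG alone 0.987, so that its fold enrichment ranged from 5.11 to 8.56 with the control. The composite element lay over the summit of the Th17 library 3 peak (chr8:46941494), from 3 bases before it to 7 bases after. The summits of Th9 library 1 (chr8:46941520) and Th17 library 4 (chr8:46941488) fell to either side of the element and not on it. A region in 3 or more libraries within 100 kb was found for 1 of the 8 IRF genes and for 1.41% of all protein-coding genes.

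The other 3 regions between 50 and 100 kb were called in Th17 library 3 only, and none held an AP-1 site. One lay 91.6 kb upstream of *Irf2*, with 10 fragments and a −log10 q of 5.02. One lay 86.6 kb upstream of *Irf5* in intron 2 of *Flnc*, the filamin C gene, with 9 fragments and a −log10 q of 3.56. One lay 97.4 kb downstream of *Irf7* in the promoter of *Rnh1*, the ribonuclease inhibitor gene, with 7 fragments and a −log10 q of 2.60, and was not listed against input alone. Measured from the gene body, as the rule does, the members farthest out within 50 kb were the *Irf9* region at 33.4 kb (9 fragments) and the *Irf4* region at 29.4 kb (10 fragments), and the first region beyond the limit was the one upstream of *Irf5* at 86.1 kb.

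**Figure D3:**
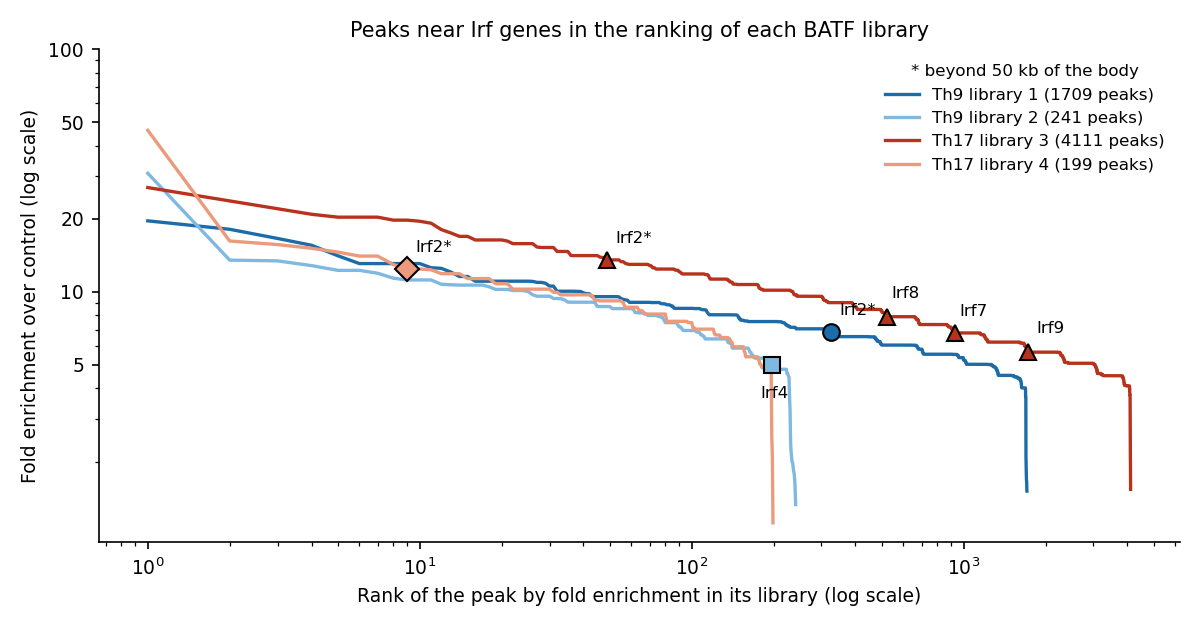
Fold enrichment of every peak (log scale) against its rank in the list of its library (log scale), 1 line per library, with the peaks near IRF genes as markers. The *Irf8*, *Irf7* and *Irf9* peaks sit in the upper and middle part of Th17 library 3 at 7.90, 6.78 and 5.65, the *Irf4* peak near the end of Th9 library 2 at 5.02, and the distal *Irf2* peaks (asterisk) near the top of both Th17 libraries.

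The distance from a gene body to the nearest summit varied with the number of peaks in the library. The median over the 8 IRF genes was 221.8, 1645, 88.8 and 3410 kb in libraries 1 to 4, and over all protein-coding genes 506.2, 3627, 182.5 and 5212 kb. For *Irf1*, *Irf2* and *Irf8* the nearest summit was at the same site in a Th9 and a Th17 library. For *Irf2* these were libraries 1 and 4 (94.1 and 94.0 kb away), and for *Irf8* libraries 2 and 4 (2722 kb). *Irf1* is described further, after its values were seen, for the site nearest to it in Th9 library 1 and Th17 library 3. That site lay 113.0 kb upstream of *Irf1* in an intron of *Rad50*, a gene whose introns hold the locus control region of the neighbouring Th2 cytokine genes, and the nearest start site was that of *Il13*. It carried 27 fragments with a −log10 q of 21.3 in Th9 library 1 and 18 fragments with a −log10 q of 14.3 in Th17 library 3, with 1 TGACTCA site by the summit in each. For *Irf3* the nearest summit was 109.2 kb away, in Th17 library 3, and in the other libraries none was nearer than 511.3 kb.

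AP-1 sites were about as frequent around the IRF genes as around other genes, with a median of 21 per window in both. The windows of the 8 genes held 198 TGACTCA sites on either strand, from 14 around *Irf3* to 44 around *Irf2*, whose gene body is the longest. Of these 198 sites, 2 lay inside a peak of any library, namely those at *Irf8* and *Irf4* (1.01%, exact 95% interval 0.123 to 3.6%). Of the 285507 such sites in the windows of all protein-coding genes, each counted once, 0.381% lay inside a peak, which is within that interval. Per 100 kb of window the median was 19.6 sites over the IRF genes and 17 over all protein-coding genes, with *Irf8* (28.3) and *Irf4* (24.6) the highest of the 8 and *Irf3* (13.3) the lowest.

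**Figure D4:**
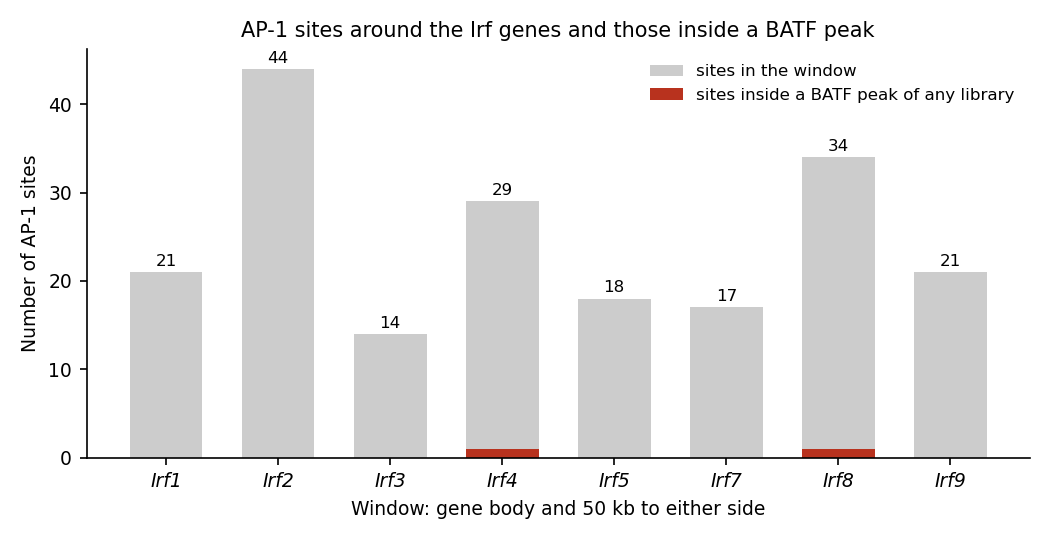
Number of TGACTCA sites, on either strand, in the window of each IRF gene (grey bars, with the number above) and of those inside a BATF peak of any library (red). *Irf8* and *Irf4* have 1 site each inside a peak, out of 34 and 29, and the other 6 genes have none.

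Of the 4 regions at the IRF genes, 2 (50%, exact 95% interval 6.76 to 93.2%) held a TGACTCA site within 100 bases of the summit, beside 997 of all 5873 regions (17%). The interval contains the share of all regions. The composite, counted as GAAA directly before TGANTCA or as TTTC with 4 bases between it and TGANTCA, was found in 0 of the 4 regions (upper end of the exact interval 60.2%) and in 1.67% of all regions. The STAT motif TTCNNNGAA was found in 0 of 4 and in 8.87% of all regions, and a GAAA half-site in 3 of 4 and in 92.6%. Motifs were counted on both strands, every composite contains a GAAA half-site and a TGANTCA site, and a match is a description of the sequence and not of occupancy. Composites were found in 1.41% of regions called in 1 library (exact 95% interval 1.12 to 1.76%) and in 10.8% of the 83 regions called in 3 or more libraries (5.08 to 19.6%). TGACTCA sites were found in 15.4% (14.5 to 16.4%) and 53.0% (41.7 to 64.1%) of these. The region past *Irf2* belonged to those 83 and held both.

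Composite elements also occurred in the windows of 2 IRF genes without any BATF peak over them. *Irf1* had 2, both in introns of *Gm12216*, at chr11:53793286-53793296 (22818 bases from the *Irf1* start site) and chr11:53811565-53811575 (41097 bases). *Irf4* had 1, at chr13:30782557-30782567, 33329 bases downstream of its start site and 13.8 kb from the nearest summit. The 51 bases around each are given because they are the places where the known BATF and IRF element occurs beside IRF genes, with the element in capitals and the plus strand shown.
Irf1, first composite: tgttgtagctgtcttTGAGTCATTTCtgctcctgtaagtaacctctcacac
Irf1, second composite: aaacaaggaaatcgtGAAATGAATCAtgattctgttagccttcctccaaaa
Irf4, composite: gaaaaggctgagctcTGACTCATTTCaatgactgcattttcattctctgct
None of the 3 lay under a peak in the lists against both controls, input alone or IgG alone. The other 6 windows held no composite, and over all protein-coding genes the median was 1 per window.

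Among the genes whose products work with the IRFs, BATF peaks came mainly from 1 library, Th17 library 3, as they did over all genes. That library had a peak at 21.9% of all protein-coding genes and Th17 library 4 at 1.23%. The list comprised ligands, receptors, kinases, sensors, STAT partners, DNA-binding partners, cofactors, negative regulators and target genes, 36 in all, of which 35 were matched to the annotation. A peak within 50 kb was found at 15 of the 35 (42.9%, beside 28.8% of all genes). None had a peak in 3 or more libraries, which even within 100 kb held for only 1.41% of all protein-coding genes. In Th9 cells a peak was found at 4 of the 35 (11.4%, beside 10.5% of all genes). In Th17 cells it was 13 (37.1%, beside 22.3%), of which 1 was left without Th17 library 3. By role, peaks were found at both ligands, 1 of 4 receptors, 2 of 5 kinases, 3 of 5 sensors and adaptors, 3 of 6 DNA-binding partners, 1 of 3 cofactors, 1 of 2 negative regulators and 2 of 5 target genes.

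A peak in each cell type was found at 2 of the 35 matched genes of this list, *Jak2* and *Batf3*, beside 3.89% of all protein-coding genes. So small a count does not set the list apart. At *Jak2*, a kinase of the interferon-γ receptor, overlapping intronic peaks about 4.8 kb past the start site (4865 and 4791 bases) carried 19 fragments in Th17 library 3 (−log10 q 15.6) and 9 in Th9 library 2 (−log10 q 2.85), without a TGACTCA site. At *Batf3*, which encodes a paralogue of BATF that pairs with IRF8 in dendritic cells, the peaks lay at different places. The Th17 library 3 peak was 6253 bases past the start site in an intron, with 14 fragments, a −log10 q of 8.14 and a TGACTCA site. The Th9 library 1 peak was 16699 bases past the start site, with 13 fragments, a −log10 q of 6.42 and no such site. Of all 22 peaks at the genes of the list, counted per library, 10 held a TGACTCA site and 1 a composite. Over all merged BATF regions the shares were 17% and 1.67%. The units differ, since a site called in more than 1 library is 1 region but counts again in each library among the 22. The peak with the composite, named after its values were seen, was 30838 bases downstream of the start site of *Socs1*, an inhibitor of JAK kinases. It had 17 fragments in Th17 library 3 and a −log10 q of 13.0.

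The pattern of *Irf8* over the 4 libraries, a single peak in Th17 library 3 of middling to high rank and none elsewhere, was a common one. Patterns were compared by the percentile of each gene's strongest peak in its list, set to 0 where a library had none. A peak in Th17 library 3 alone was found at 3868 genes, and 149 of these had exactly the percentile of *Irf8*, 85.1. *Phf3*, *Traf3ip1* and *Asb1* were the first of these ties, and their order carries no information.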

How the data were processed

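BATF ChIP-seq peak lists of 4 libraries, 2 of Th9 and 2 of Th17 cells, were analysed. According to Methods and the submitters' processing notes, the authors trimmed paired-end reads with Trim Galore 0.4.3, aligned them to mm10 with Bowtie2, and called peaks per library with MACS2 2.1.0 (q of 0.01, all duplicates kept) against input, IgG or both, which gave 12 lists. For each peak the authors deposited a fold enrichment (the ratio of BATF signal to control at the summit) with its −log10 p-value and −log10 q-value.

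From these, the lists against both controls were the main ones. Genes and start sites came from RefSeq release 108.20200622 on GRCm38.p6 (curated transcripts, and gene records for bodies), and sequences from the same build. Peaks sharing 1 bp were merged over libraries, and the summit of a region was that of its peak with the highest −log10 q. A promoter was 1000 bases before to 100 bases after a start site, and ranks by q give ties the best rank. The whole number of fragments k and the background b were solved from the deposited values as fold = (k + 1)/(b + 1) and the Poisson p. This calculation was added after the data were seen, and it returned a whole number within 0.001 in −log10 p for all but 23 of 17427 peaks. Poisson intervals and binomial (Clopper-Pearson) intervals cover counting error only, since duplicates were kept and fragments need not be separate molecules. Total depth per library is not in the lists. Peak numbers were compared by an exact permutation test, and all else is described.

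The members and gene lists were chosen with earlier results of these data known. Genes named were the 8 members, genes with start sites nearer to their regions, listed pathway genes with a peak in each cell type or in 3 or more libraries, and the 3 genes most like the leading member. Results for some items of these lists are not reported here. Alternatives are given in the closing section. The calculations were tested on simulated data. Python 3.11.15 with numpy 2.4.6, pandas 2.3.3, scipy 1.17.1 and matplotlib 3.10.9 was used.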

Additional observations from a re-analysis of the deposited data

Results flagged for a closer look

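The peaks past *Irf2* were singled out because they lie outside the 50 kb rule and were still listed in 3 of the 4 BATF libraries, Th9 library 1 and both Th17 libraries, each also against input alone and against IgG alone. No region within 50 kb of an IRF gene was listed in more than 1 library. In Th9 library 2 no peak was listed there. Peaks of input or IgG libraries of their own were not analysed here, and whether the site acts on *Irf2*, *Enpp6* or another gene was not tested.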

How the results depend on the processing

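Of 85 results under alternatives, 2 reversed, 15 counts or shares moved beyond 1.5 times or beyond their interval, and 68 were labelled unchanged. A difference in peak numbers kept that label at any size unless its sign changed or it vanished, since these libraries cannot pass a test. Shares kept it anywhere within 6.76 to 93.2% (TGACTCA) or 0 to 60.2% (composite), so the 68 are not a measure of stability. Among these 68, input alone gave a difference of 2 peaks and a TGACTCA share of 25%, with *Irf5* in place of *Irf4*, and the difference was 3 at 100 kb and 0.5 at 10 kb or with peaks given to the nearest start site, none of which could pass a test of 2 against 2 libraries. IgG alone, 50% reciprocal overlap, other motif definitions and windows, and GENCODE vM21 gene bodies (added after seeing the data) left these values, where they bear on them, at 1 peak and 50%. A minimum −log10 q of 5 left 2 genes and 2 regions (*Irf7* and *Irf8*). A 10 kb window left 1 gene and 1 region (*Irf7*), of which 0% had a TGACTCA site, and 100 kb gave 8 regions, 1 of them in both cell types. With the same number of top peaks (199) from each library the difference, Th17 minus Th9, was -0.5 peaks per library, and 1 gene and 1 region (*Irf4*) were left, 100% with a TGACTCA site. Requiring both libraries of a cell type left 0 genes and 0 regions, so no motif share could be given. Leaving out each library in turn gave differences of -0.5 to 2.5 peaks, 1 to 4 genes, 1 to 4 regions, TGACTCA shares of 33.3 to 100% and composite shares of 0 to 0%. The lowest difference and the highest share came without Th17 library 3. No paired analysis was possible because no replicate number occurs in both cell types (1 and 2 in Th9, 3 and 4 in Th17). The weakest listed peaks carried 7 to 8 fragments at the genome-wide background, and the 4 peaks within 50 kb carried 9 to 13.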
